A study of Mus musculus with 5 samples.

Results

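The genes of the IL-12, IL-18, IL-21, IL-27, IL-10, IL-4 and IL-7 receptors were examined for Runx3 occupancy and H3K4me1 marking in IL-2-activated natural killer cells (NKC). The 9 genes were Il12rb1, Il12rb2, Il18r1, Il18rap, Il21r, Il27ra, Il10ra, Il4ra and Il7r, out of 22350 protein-coding genes on the 19 autosomes and chromosome X. A peak was assigned to a receptor when it overlapped the gene or the 20 kb on either side of it by at least 1 bp. By this rule 21 of 11676 Runx3 peaks and 91 of 34204 H3K4me1 peaks belonged to the receptors.

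Chromatin immunoprecipitation and sequencing (ChIP-seq) had been done on NKC of the spleen of ICR mice, which the labels describe as NKp46+ after 7 days in culture with 1000 units/ml of human recombinant IL-2. There were 2 libraries for Runx3, 1 for H3K4me1 and 2 for non-immune serum (NIS), the control against which peaks were called. All libraries came from cultured cells that had received IL-2, so the lists describe 1 state of the cells, and no untreated group was analysed here. The lists give the start and end of each peak, with the reads of repeats joined and no score, so peak height, sequencing depth and the spread between libraries cannot be read from them, and no value has a replicate error.

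These receptors let NKC respond to cytokines made by myeloid cells, T cells and stroma. IL-12 binds a pair of chains encoded by Il12rb1 and Il12rb2 and signals through Stat4, while IL-18 binds Il18r1 together with the accessory chain Il18rap and signals through Myd88, and both cytokines together are strong inducers of interferon gamma in NKC. Runx3 is a transcription factor of the RUNX family that is prominent in cytotoxic lymphocytes, and H3K4me1 is a histone mark that is abundant at enhancers and around promoters. A peak shows that the factor or mark was enriched at a place, and it does not by itself show that the gene was regulated or expressed.

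The 6 receptors with a RUNX motif in the Runx3-bound region nearest to their 5′ end were Il12rb1, Il12rb2, Il18r1, Il18rap, Il21r and Il4ra. The canonical motif was searched on both strands as TGTGGT or TGTGGC and as TGCGGT or TGCGGC, with overlaps allowed. To show what Runx3-bound DNA at each receptor contained, 30 bases around the motif closest to the centre of that region are given 5′ to 3′ on the strand where it reads as spelled here, with the motif in capitals (mm9).
Il12rb1, chr8:73330315-73330344, minus strand: ttatttaatgtgTGTGGTggctgcctgcat
Il12rb2, chr6:67326200-67326229, minus strand: aaaccctccctcTGCGGCtagtggcgggcg
Il18r1, chr1:40522475-40522504, plus strand: acaggtggttctTGTGGTtgagtagacagg
Il18rap, chr1:40558894-40558923, plus strand: cggctcctgaagTGTGGCtctgaagaagaa
Il21r, chr7:132747000-132747029, plus strand: gcccacttctccTGTGGTgtgcctcacggt
Il4ra, chr7:132699251-132699280, minus strand: agactggggctcTGTGGTtgagagccgtgg
The Il12rb2 site was the only TGCGGC among these 6, the Il18rap site was TGTGGC, and the other 4 were TGTGGT. Along the plus strand the sites lay 16 bp from the peak centre at Il18rap, 18 bp at Il21r and 72 bp at Il12rb2. At Il18r1, Il4ra and Il12rb1 they lay at -102, 234 and -256 bp, outside the central 200 bp, which held no RUNX motif.

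Of the 9 receptors, 7 had at least 1 Runx3 peak, against 41.1% of all protein-coding genes, and 8 had at least 1 H3K4me1 peak, against 51.1%. A Runx3 peak that overlapped an H3K4me1 peak was present at 7 receptors, against 20.5% of genes. Il27ra was marked by H3K4me1 with no Runx3 peak, a state found at 17.3% of genes, and Il7r had neither, as did 41.6% of genes. The median receptor had 3 Runx3 peaks and 10 H3K4me1 peaks, and the median gene had 0 and 1. H3K4me1 peaks covered a median of 8.44% of the receptor windows and 0.299% of the windows of all genes. The receptor windows had a median length of 67.2 kb against 55.4 kb for all genes, and longer windows can hold more peaks. Since the lists hold 1 value per gene, these comparisons are descriptions and were not tested.

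Runx3 peaks were most numerous at Il21r with 6 and at Il4ra with 5, followed by Il12rb1 with 4. Il12rb2 and Il18r1 had 3 each, Il18rap had 2, Il10ra had 1, and Il27ra and Il7r had 0. Of all genes, 0.729% had at least as many Runx3 peaks as Il21r, 1.54% as many as Il4ra, 3.23% as many as Il12rb1 and 7.36% as many as Il12rb2 and Il18r1. The places of Il4ra and Il12rb1 rested on the flanks, and 2 of the Il4ra peaks were shared with Il21r. With 5 kb flanks Il21r had 4 Runx3 peaks, Il12rb2 and Il18r1 had 3 each, and Il4ra and Il12rb1 had 2 each. With 20 kb flanks the order by H3K4me1 was different from that by Runx3. Il4ra had 21 H3K4me1 peaks, Il21r and Il10ra had 19 each, Il12rb1 had 15, Il18r1 had 10, Il12rb2 had 7, Il18rap and Il27ra had 6 each and Il7r had 0. Il10ra therefore stood next to Il21r by H3K4me1 and near the bottom of the list by Runx3. Its place by H3K4me1 rested on the flanks, since 4 of its 19 peaks lay in the gene, and with 5 kb flanks it had 6 H3K4me1 peaks, fewer than Il4ra with 13, Il18r1 with 9, Il21r with 8, and Il12rb1 and Il12rb2 with 7 each.

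**Figure D1:**
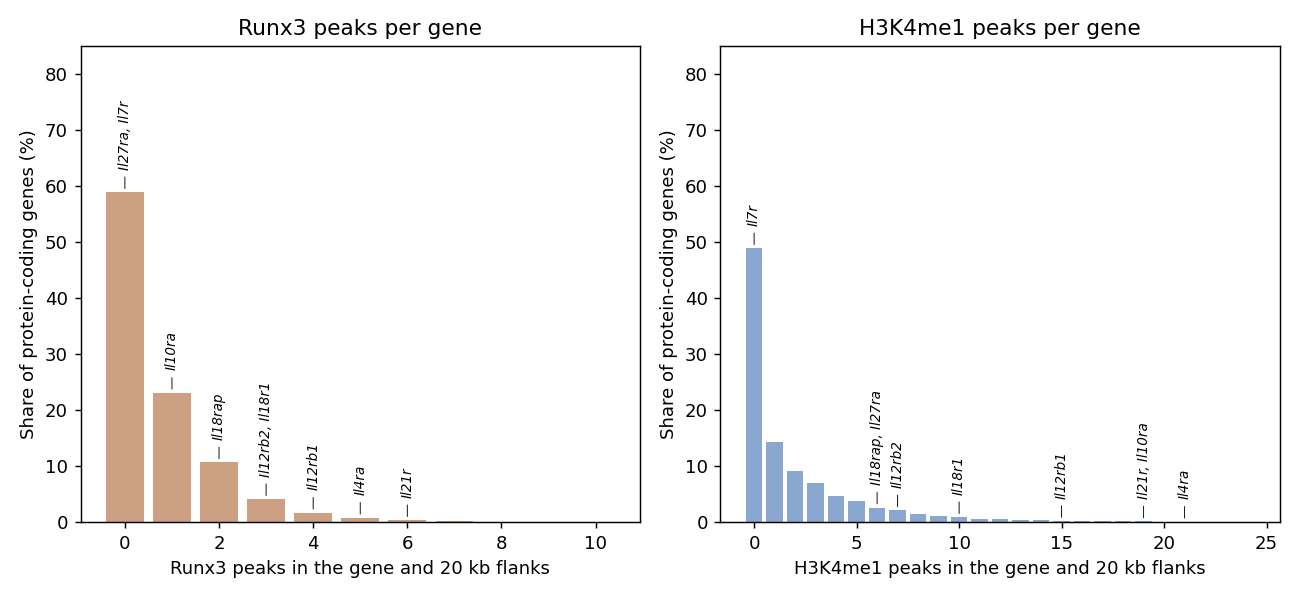
Histograms of the number of Runx3 peaks (left) and H3K4me1 peaks (right) in a gene and its 20 kb flanks, as the share of 22350 protein-coding genes in percent, with the 9 receptors named above the bar of their own number. Counts above 10 Runx3 and 24 H3K4me1 peaks are not drawn. Il21r with 6 Runx3 peaks and Il4ra with 21 H3K4me1 peaks lie far to the right, and Il7r lies at 0 in both.

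The plot of peak positions shows that the Runx3 peaks lay upstream of, inside and downstream of the receptors. Of the 21 peaks, 9 were intergenic, 7 were centred in introns and 5 in UTR exons. The nearest TSS was that of a receptor for 19 peaks, and belonged to Mast3 and Arrdc2, the neighbours of Il12rb1, for 1 peak each. In 3 peaks the assignment was shared by a pair of adjacent receptors, as was that of 12 H3K4me1 peaks. The Runx3 peaks were 368 to 1846 bp wide with a median of 634 bp, against 704 bp in the whole list.

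**Figure D2:**
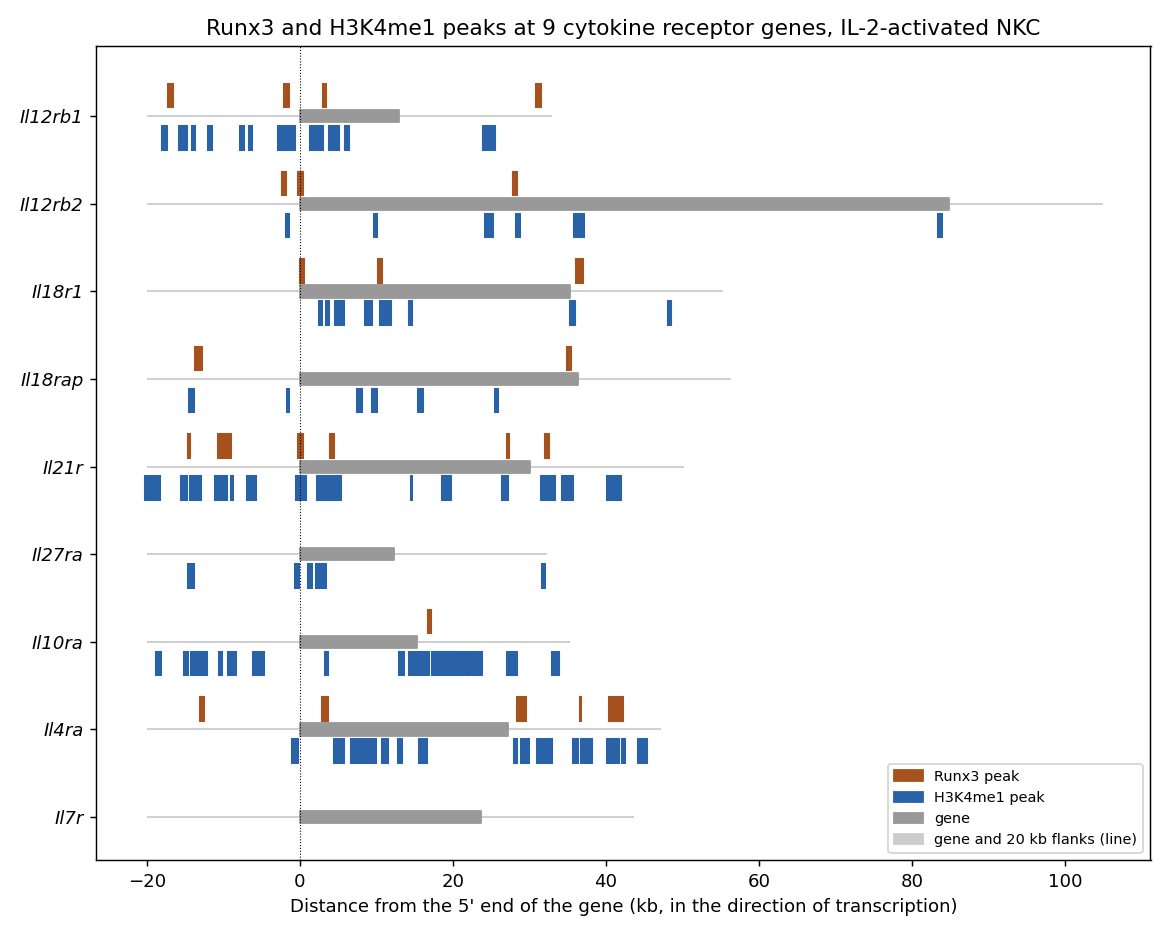
Map of the 9 receptor genes, each drawn from its 5′ end at 0 in the direction of transcription, with distance in kb on the horizontal axis. Brown boxes above each gene are Runx3 peaks, blue boxes below it are H3K4me1 peaks, grey bars are genes and thin lines are the genes with their 20 kb flanks. Runx3 peaks sit at the 5′ ends of Il12rb2, Il18r1 and Il21r, Il27ra has H3K4me1 peaks only, and Il7r has none of either.

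A Runx3 peak was centred within 1 kb of a TSS at 3 receptors, Il12rb2, Il18r1 and Il21r, against 13.3% of all genes. At Il12rb2, which encodes the signalling chain of the IL-12 receptor (chr6:67241312-67326182, minus strand), the peak at chr6:67325809-67326478 was 670 bp wide and was centred 39 bp downstream of the 5′ end. At Il18r1, the chain that binds IL-18 (chr1:40522397-40557699, plus strand), the peak at chr1:40522287-40522897 was 611 bp wide and was centred 195 bp downstream. At Il21r, which pairs with the common gamma chain to bind IL-21 (chr7:132746943-132777084, plus strand), the peak at chr7:132746623-132747371 was 749 bp wide and was centred 54 bp downstream. All 3 peaks thus spanned the 5′ end of their gene.

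These 3 promoter peaks differed in their H3K4me1 context. The Il21r peak lay wholly inside an H3K4me1 peak of 1485 bp. The Il12rb2 peak overlapped none and lay in an interval of 11001 bp between H3K4me1 peaks, with 1100 bp to the next one upstream and 9231 bp to the next one downstream. The Il18r1 peak overlapped none either, and the nearest H3K4me1 peak began 1941 bp downstream in the gene, whereas upstream the next one was 20194 bp away. Il10ra and Il7r, like Il18r1, had no H3K4me1 peak within 1 kb of any annotated TSS.

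The sequence upstream of the 5′ end is shown for the 3 receptors with a promoter peak, on the strand of the gene and ending at the base before the 5′ end, with RUNX motifs in capitals. The window was 150 bases for Il12rb2 and Il21r, and 136 bases for Il18r1, where the bases before it belong to a UTR exon of the neighbouring gene Il1rl1.
Il12rb2, chr6:67326183-67326332, minus strand: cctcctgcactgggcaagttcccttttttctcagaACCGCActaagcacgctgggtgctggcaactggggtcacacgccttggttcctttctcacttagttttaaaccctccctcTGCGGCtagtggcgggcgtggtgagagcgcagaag
Il18r1, chr1:40522261-40522396, plus strand: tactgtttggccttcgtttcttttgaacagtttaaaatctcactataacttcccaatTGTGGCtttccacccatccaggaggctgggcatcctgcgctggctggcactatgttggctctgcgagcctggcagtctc
Il21r, chr7:132746793-132746942, plus strand: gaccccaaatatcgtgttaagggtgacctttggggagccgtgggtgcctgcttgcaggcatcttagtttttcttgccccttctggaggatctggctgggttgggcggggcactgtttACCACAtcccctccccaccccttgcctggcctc
Counted back from the 5′ end, Il12rb2 held TGCGGT on the opposite strand at -115 to -110 and TGCGGC at -35 to -30. Il18r1 held TGTGGC at -79 to -74, and Il21r held TGTGGT on the opposite strand at -33 to -28. Such a 150-base window held a RUNX motif in 25.3% of all protein-coding genes. In the Il12rb2 window the motif at -115 shared its outermost base with a STAT motif, TTCNNNGAA, at -123 to -115, and 4.04% of windows held that motif.

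Il12rb2 had 2 further Runx3 peaks. One at chr6:67328032-67328614 was centred 2141 bp upstream of the 5′ end and overlapped an H3K4me1 peak by 28 bp, or 4.8% of its width. The other, at chr6:67297857-67298470 in an intron, was centred 28019 bp downstream of the 5′ end and 35.7% of it was covered by H3K4me1. Its centre was 8475 bp upstream of another annotated TSS of Il12rb2. H3K4me1 covered 3.7% of the window of this long gene, the lowest share of the 8 receptors with the mark, and a level reached by 21.9% of genes.

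Il12rb1, which encodes the chain shared by the receptors for IL-12 and IL-23 (chr8:73332348-73345323, plus strand), had 4 Runx3 peaks and none within 1 kb of its TSS. The nearest, chr8:73330190-73330983, was centred 1762 bp upstream and 91.1% of it was covered by H3K4me1 peaks, one of which came within 1 kb of the TSS. A peak in an intron of Il12rb1, chr8:73335203-73335780, was centred 3143 bp downstream of the 5′ end and was 36.3% covered. In this region 89.4% of 40-base stretches, the length of the reads, occurred once in the genome, whereas in the other 20 Runx3 peaks all of them did. The outer peaks were 16952 bp upstream, in an intron of Mast3, and 31108 bp downstream of the Il12rb1 5′ end. The last of these, chr8:73363058-73363854, was centred 23 bp from the TSS of Arrdc2, and both were nearer to the neighbour's TSS than to that of Il12rb1. With flanks of 5 kb only the 2 peaks nearest the gene remained at Il12rb1. H3K4me1 covered 22.9% of the Il12rb1 window, a level reached by 1.0% of genes, against 3.7% of the Il12rb2 window. The Il12rb1 window was 53.0 kb long and took in H3K4me1 peaks inside Mast3, whereas that of Il12rb2 was 125.0 kb. With 20 kb flanks Il12rb1 had 15 H3K4me1 peaks and Il12rb2 had 7, or 28.3 and 5.61 per 100 kb. With 5 kb flanks both had 7, but Il12rb1 is 12976 bp long and Il12rb2 is 84871 bp long. The chains of the IL-12 receptor thus differed in the coverage and peak density of the 20 kb windows. The equal count with 5 kb flanks came from windows of unlike length.

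Il18r1 and Il18rap lie one after the other on chromosome 1 in the same direction, 14507 bp apart, and shared a Runx3 peak. This peak, chr1:40558353-40559433, was 1081 bp wide, wider than 91.1% of Runx3 peaks, and was centred 13314 bp upstream of Il18rap and just past the 3′ end of Il18r1. It held 4 RUNX motifs and overlapped an H3K4me1 peak by only 43 bp at its edge. Il18r1 had another Runx3 peak in an intron, chr1:40532536-40533086, centred 10414 bp downstream of its 5′ end and 53.0% covered by H3K4me1. The last peak at Il18rap (chr1:40572207-40608550, plus strand), chr1:40606977-40607654, was centred 35108 bp downstream of its 5′ end in a UTR exon near the 3′ end and overlapped no H3K4me1 peak. Thus neither of the Runx3 peaks of Il18rap lay within 10 kb of its 5′ end, although the last was centred 8778 bp downstream of another annotated TSS of Il18rap. H3K4me1 was concentrated in the upstream part of Il18r1, with 8 peaks centred 2692 to 14415 bp downstream of its 5′ end. The mark covered 8.44% of the Il18r1 window and 5.49% of the Il18rap window. In these windows 83.0% and 82.9% of 40-base stretches occurred once in the genome, lower than the 94.3% to 96.7% of 6 other receptors.

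Il4ra, the IL-4 binding chain (chr7:132695785-132722986, plus strand), and Il21r are also neighbours in the same direction, 23956 bp apart, and shared 10 H3K4me1 peaks and 2 Runx3 peaks. The whole locus, from the upstream flank of Il4ra to the downstream flank of Il21r, held 9 different Runx3 peaks. The widest Runx3 peak at any receptor, chr7:132736111-132737956, lay between the genes, 9910 bp upstream of the Il21r 5′ end and 41248 bp downstream of that of Il4ra. It was 1846 bp wide, wider than 99.7% of Runx3 peaks, held 13 RUNX motifs, and 84.5% of it was covered by 3 H3K4me1 peaks. The other shared peak, chr7:132732222-132732589, was the narrowest at any receptor with 368 bp, and 37.8% of it was covered. The other wide region, chr7:132723999-132725368, began just past the 3′ end of Il4ra and was assigned to Il4ra only. It was 1370 bp wide, wider than 97.7% of Runx3 peaks, held 11 RUNX motifs and was 67.1% covered by 3 H3K4me1 peaks. These 2 wide regions and the peak 1762 bp upstream of Il12rb1 were the 3 Runx3 peaks of the receptors that overlapped 2 or more H3K4me1 peaks, as 11.4% of all Runx3 peaks did.

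**Figure D3:**
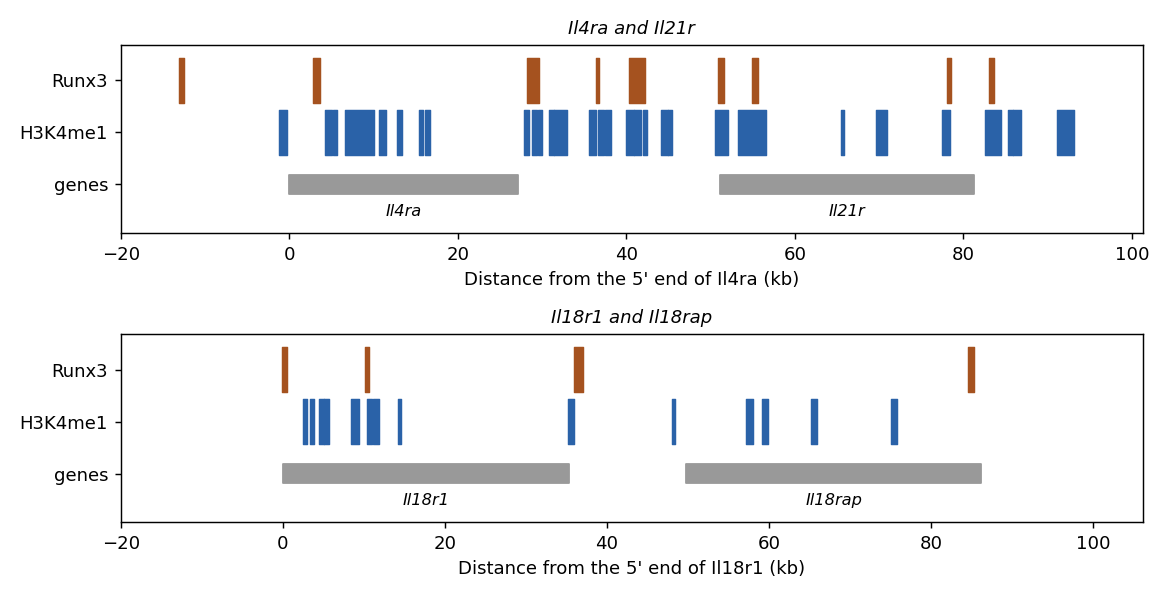
Map of the adjacent receptor genes Il4ra and Il21r (top) and Il18r1 and Il18rap (bottom), with distance in kb from the 5′ end of the upstream gene on the horizontal axis and rows for Runx3 peaks (brown), H3K4me1 peaks (blue) and genes (grey). The interval between Il4ra and Il21r holds 3 Runx3 peaks among many H3K4me1 peaks, and the interval between Il18r1 and Il18rap holds 1 Runx3 peak.

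For the 2 wide regions, the 200 bases with the most motifs are shown on the plus strand with RUNX motifs of either strand in capitals.
Downstream of Il4ra, chr7:132723999-132724198: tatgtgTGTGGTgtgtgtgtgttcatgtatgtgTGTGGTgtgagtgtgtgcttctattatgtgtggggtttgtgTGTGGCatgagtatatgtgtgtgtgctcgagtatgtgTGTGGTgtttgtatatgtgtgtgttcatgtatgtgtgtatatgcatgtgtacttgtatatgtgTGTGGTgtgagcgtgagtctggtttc
Between Il4ra and Il21r, chr7:132736261-132736460: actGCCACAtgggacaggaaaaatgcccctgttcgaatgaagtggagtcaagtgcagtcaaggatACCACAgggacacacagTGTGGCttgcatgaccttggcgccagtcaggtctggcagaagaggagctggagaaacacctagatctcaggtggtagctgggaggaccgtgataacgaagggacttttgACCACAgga
The stretch downstream of Il4ra held 5 motifs, all on the plus strand and set in runs of alternating T and G. Runs of at least 3 TG or CA made up 7.15% of that whole region, a share reached by 3.43% of Runx3 peaks, against 0.975% in the region between the genes and a median of 0.802%. The stretch between the genes held 4 motifs, 1 on the plus strand and 3 on the minus strand, and a run of CA lay beside the motif on the plus strand. Whether the repeat bears on the width or motif count downstream of Il4ra was not tested.

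The other 6 Runx3 peaks of this locus were 473 to 847 bp wide. Within Il21r, the peak in an intron at chr7:132750755-132751378, centred 4123 bp downstream of the 5′ end, lay wholly inside an H3K4me1 peak of 3311 bp that was wider than 99.6% of H3K4me1 peaks. Towards the 3′ end, chr7:132773825-132774297 was 75.5% covered, and past the 3′ end, chr7:132778874-132779469 was wholly covered. All 6 Runx3 peaks of Il21r thus overlapped H3K4me1, and the mark covered 28.7% of its window, a level reached by 0.416% of genes. At Il4ra the peak in an intron, chr7:132698609-132699455, and the peak 12810 bp upstream of the gene, chr7:132682659-132683292, overlapped none, so 3 of its 5 peaks did. H3K4me1 covered 26.3% of the Il4ra window, including a peak of 3446 bp centred 8298 bp downstream of the 5′ end, in which no Runx3 peak lay.

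Il10ra, the IL-10 binding chain (chr9:45061922-45077232, minus strand), had the highest H3K4me1 coverage of the 9 receptors and a single Runx3 peak. The 19 H3K4me1 peaks covered 35.9% of its window, a level reached by 0.134% of genes. Of these peaks, 4 lay in Il10ra, and the window took in others inside the neighbouring gene BC049352, so the coverage is not that of Il10ra alone. The widest, chr9:45055892-45060026, measured 4135 bp, wider than 99.8% of the list. It lay downstream of Il10ra, where BC049352 ends at position 45058103. The Runx3 peak, chr9:45060073-45060588, was centred 16902 bp downstream of the Il10ra 5′ end, 1334 bp past its 3′ end, between this H3K4me1 peak and the next, which covered 52.5% of it. It was the only Runx3 peak of the receptors with no RUNX motif. It held 1 ETS motif and 1 AP-1 motif, shown in capitals in 60 bases of the plus strand, the ETS motif first.
Il10ra, chr9:45060225-45060284: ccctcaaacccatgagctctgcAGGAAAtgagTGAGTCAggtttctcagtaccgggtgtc
A count of 0 says that these letters were not in this region and nothing more.

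Il27ra, which pairs with gp130 to bind IL-27 (chr8:86554186-86566488, minus strand), had 6 H3K4me1 peaks and no Runx3 peak. The H3K4me1 peaks were centred 443 bp upstream and 1326, 2324 and 3122 bp downstream of its 5′ end, with 2 more in the flanks, and covered 7.82% of the window. The mark was thus gathered at the 5′ part of the gene. The nearest Runx3 peak, chr8:86590058-86590551, was 23570 bp from the gene and entered its window only with 50 kb flanks.

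Il7r, the IL-7 binding chain (chr15:9435916-9459631, minus strand), was the only receptor without a peak of either kind. The nearest H3K4me1 peak, chr15:9504473-9505085, was 44842 bp from the gene, and the nearest Runx3 peak, chr15:9799767-9800510, was 340136 bp away. In its window 76.9% of 40-base stretches occurred once in the genome, the lowest share of the 9 receptors, and the authors kept only reads that aligned uniquely. The part of this in the absence of peaks was not tested.

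Of the 21 Runx3 peaks, 15 (71.4%) overlapped an H3K4me1 peak by at least 1 bp, against 48.4% of all Runx3 peaks. The overlap was often slight. The centre lay inside an H3K4me1 peak in 9, against 28.2% of all Runx3 peaks, and in the other 6 the H3K4me1 peak reached only the side of the Runx3 peak. When at least 50% of the Runx3 peak had to be covered, the same 9 peaks at the receptors qualified and 31.6% of the whole list did. Outside the Il4ra and Il21r locus they were only the Il18r1 intron peak, the Il10ra peak and the peak 1762 bp upstream of Il12rb1. The rest lay in that locus, which held 9 of the 21 Runx3 peaks, so these shares rest largely on it. Seen from the mark, 20 of the 91 H3K4me1 peaks (22.0%) overlapped a Runx3 peak, against 19.9% of all H3K4me1 peaks.

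**Figure D4:**
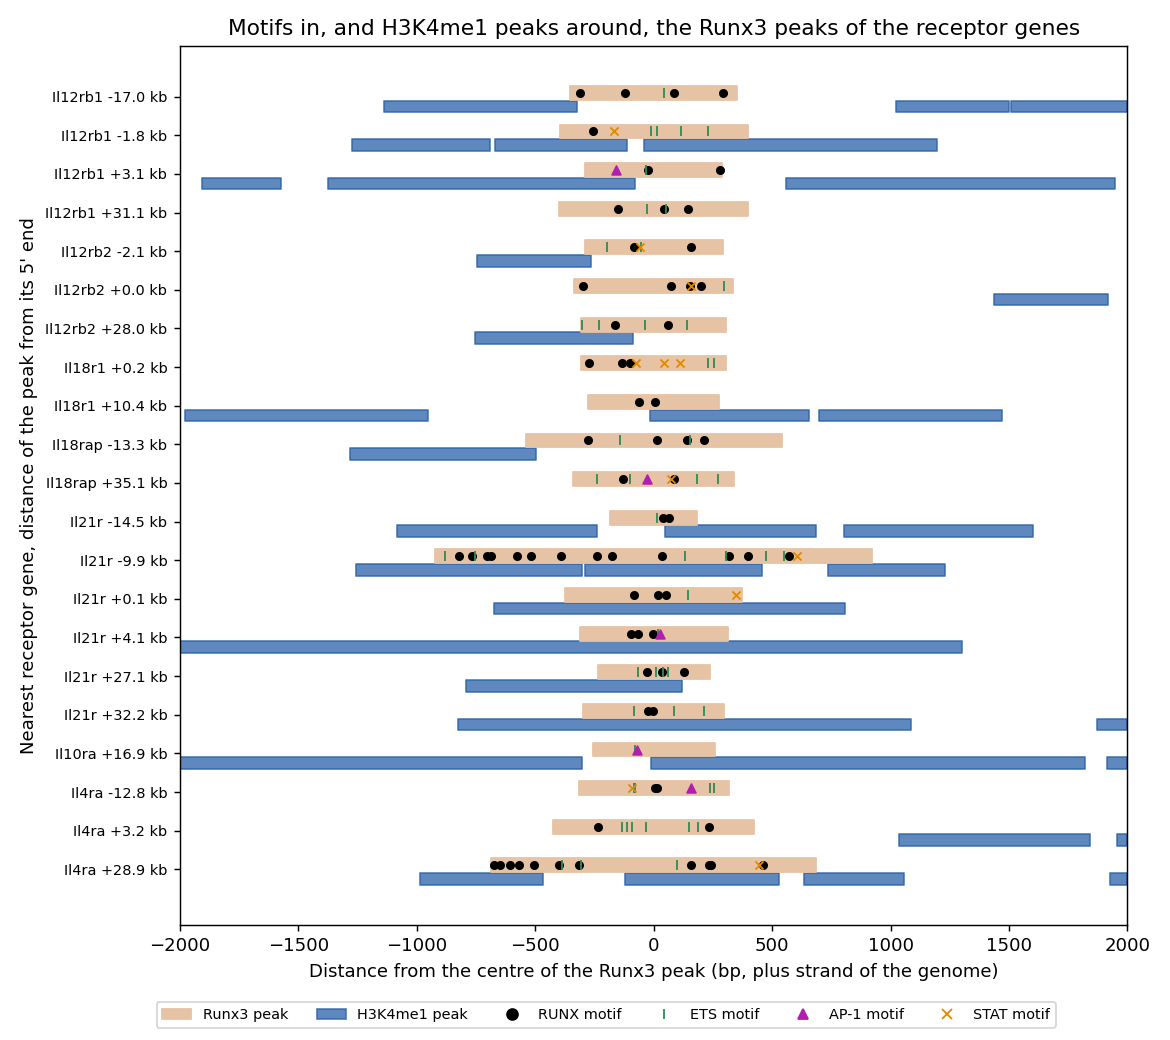
The 21 Runx3 peaks of the receptors aligned at their centres, with distance in bp along the plus strand, 2000 bp to either side. Light brown boxes are Runx3 peaks, blue boxes H3K4me1 peaks, dots RUNX, green bars ETS, triangles AP-1 and crosses STAT motifs, and each line is named by the nearest receptor and the distance of the peak from its 5′ end. The promoter peaks of Il12rb2 and Il18r1 lack H3K4me1 at their centres, whereas that of Il21r is covered, and only the Il10ra peak has no RUNX dot.

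At least 1 RUNX motif was present in 20 of the 21 peaks, against 96.0% of all Runx3 peaks and 69.8% of windows of the same widths 10 kb to either side. The 20 peaks held 70 motifs, with 1 to 13 in each. In the central 200 bp, 16 of 21 peaks had a motif, against 77.0% of all Runx3 peaks and 29.2% of flanking windows. Thus the receptor peaks had RUNX motifs about as often as the list as a whole. In the 3 promoter peaks of the receptors the motifs were TGTGGT 3 times, TGTGGC 4 times, TGCGGT 2 times and TGCGGC 1 time. In the other peaks they numbered 35, 19, 3 and 3 in the same order. Those other peaks include 2 centred within 1 kb of a neighbour's TSS. The peak at Arrdc2 held TGCGGT 2 times and the peak at Mast3 held TGCGGC 1 time.

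Motifs of other factors were searched on both strands in the same way. An ETS motif (AGGAAA or AGGAAG or CGGAAA or CGGAAG) was present in 20 of 21 peaks, against 91.4% of all Runx3 peaks and 84.6% of flanking windows. An AP-1 motif (TGAGTCA) was present in 5, against 26.2% and 12.6%. A T-box site (AGGTGTGA) was present in 1, the peak in the Il21r intron 4123 bp from the 5′ end, against 5.51% and 3.54%. These shares were near those of the whole list. The STAT motif, TTCNNNGAA, was present in 9 of 21 peaks (42.9%), against 21.6% of all Runx3 peaks and 20.4% of flanking windows. These 9 peaks held 11 STAT motifs, of which 3 overlapped an ETS, RUNX or AP-1 motif. They belonged to Il12rb1 (1 peak), Il12rb2 (2), Il18r1 (1), Il18rap (1), Il21r (2, of which 1 was shared with Il4ra) and Il4ra (2), and the Il18r1 promoter peak held 3 of the motifs. With 21 peaks, some of them adjacent, this difference was given as a count and not tested.

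A pair of RUNX motifs at most 50 bp apart was present in 9 of 21 peaks (42.9%), against 45.6% of all Runx3 peaks and 11.0% of flanking windows. RUNX and ETS motifs were that close in 12 peaks (57.1%), against 59.2% and 26.1%, and RUNX and AP-1 in 1 peak, in the Il21r intron, against 12.7% and 2.14%. The RUNX pairs were closest in the peak upstream of Il4ra, with 1 bp between the motifs.

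The other genes of these pathways were taken as whole lists. Of 8 co-receptors and related chains, 5 had a Runx3 peak and 4 an H3K4me1 peak, beside the 41.1% and 51.1% of all genes. Il10rb, the partner of Il10ra, had 3 Runx3 peaks, all overlapping H3K4me1, and 10 H3K4me1 peaks, whereas Il2rg, the common gamma chain that pairs with Il21r, Il4ra and Il7r, Il6st, which encodes gp130, and Il13ra1 had neither. Il1rl1 had 2 Runx3 peaks, which were the promoter and intron peaks of Il18r1, since the windows overlap. Its place among the 5 thus rests on peaks already described. Of 14 signalling genes, 10 had a Runx3 peak and 11 an H3K4me1 peak, beside the same shares of all genes, with 4 Runx3 peaks each at Jak1, a kinase bound to many of these receptors, Stat4, which acts downstream of IL-12, and Stat6, which acts downstream of IL-4. Tyk2 and Stat5a carried H3K4me1 without Runx3, and Irak1 and Traf6 had neither. Of 10 ligand genes, 7 had a Runx3 peak and 7 an H3K4me1 peak, beside the same shares, with 3 Runx3 peaks at Il10, and none of either kind at Il12b and Il21.

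The label of the cells was checked against marker genes. All 7 NKC markers had both kinds of peaks, with 5 Runx3 peaks each at Klrb1c and Prf1, and so did 3 of 4 T cell markers, 2 of 3 B cell markers and 2 of 3 myeloid markers, while Cd8a, Ms4a1 and Lyz2 had neither. Of all genes, 33.8% had both kinds. Cd3e and Cd3g had equal values, with 2 Runx3 peaks, 4 H3K4me1 peaks and 7.18% coverage each. Whether they share the same peaks was not examined, so the count of T cell markers may include 1 locus more than once. Peaks near a gene are not its expression, so the purity of the cells cannot be read from these lists.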

How the data were processed

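Runx3 and H3K4me1 were measured by ChIP-seq in IL-2-activated NKC. The authors aligned reads to mm9 with ELAND, kept unique reads, joined repeats, scaled the larger dataset to the smaller and called peaks with MACS against NIS. The deposited values are peak starts and ends in bp, with no score. The methods speak of repeats where the labels list 1 H3K4me1 library. Columns of other samples numbered 0.

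Starts, taken as counted from 0, are given from 1. Genes and TSSs were those of GENCODE M1 and the sequence that of the same build. Motifs were exact matches on both strands. No test was made. The receptors and lists were chosen with earlier results of these data known. All 9 receptors are named with every Runx3 peak, and a neighbour where a described peak lies in its gene or nearer to its TSS. The central 200 bases of the peak with the most RUNX motifs were to be printed, but held few motifs, so the sequences shown were chosen after the values were seen, as was the comparison of TG runs and 40-base stretches. Il1rl1 and BC049352 are named to place a sequence and H3K4me1 peaks, also after the values were seen. The overlap and motif searches were tested on simulated data. Alternatives were other flanks, widths, overlaps, TSS distances and gene rules. Calculations used python 3.11.15, numpy 2.4.6, pysam 0.24.0, samtools 1.23.1 and matplotlib 3.10.9.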

Additional observations from a re-analysis of the deposited data

How the results depend on the processing

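The number of receptors with a peak changed less between the rules than the number of peaks did. With 50 kb flanks the receptors had 33 Runx3 peaks, and with peaks of at least the median width 8, against 21. The 91 H3K4me1 peaks became 59 with 5 kb flanks, 47 with peaks of at least the median width and 49 when peaks under 1 kb apart were joined. Receptors with a Runx3 peak near a TSS rose from 3 to 5 within 5 kb, and 9 of the 15 Runx3 peaks that overlapped H3K4me1 had at least 50% of their width covered. The number of receptors with a Runx3 peak stayed between 5 and 8 and with an H3K4me1 peak between 8 and 9. No share of all genes under the other rules stands beside these counts of receptors. They therefore do not show how the difference from all genes changed with the rule. Each rule adds or drops peaks by construction. Peak width was used because the lists hold no score. Width is not a score, so this setting does not show what a stricter peak threshold would give. No paired analysis was possible because the lists hold no values per library, and for the same reason no repeat could be left out. Depth, and so what a missing peak at Il7r or Il27ra means, cannot be read from the lists.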

Other observations

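With 50 kb flanks, the number of Runx3 peaks went from 4 to 8 at Il12rb1, from 5 to 8 at Il4ra, from 6 to 8 at Il21r, from 2 to 5 at Il18rap, from 3 to 5 at Il12rb2, from 1 to 4 at Il10ra and from 3 to 4 at Il18r1. H3K4me1 peaks reached 35 at Il10ra, the highest number of the 9 receptors, and 29 at Il21r, whereas with 5 kb flanks Il10ra had 6, fewer than 5 other receptors. Il7r gained 1 H3K4me1 peak and still had 0 Runx3 peaks. When peaks were assigned by the rule of GREAT, which gives each gene a basal domain of 5 kb upstream and 1 kb downstream of its TSS and extends it up to the basal domain of the next gene, Il12rb1 kept 2 Runx3 peaks and Il21r had 8, and Il27ra and Il7r again had 0.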
